A study of Mus musculus with 20 samples.

Results

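Thiamine (vitamin B1) enters cells through membrane carriers and is phosphorylated inside them, and 3 genes of this pathway were followed in mouse liver: Thtpa, the thiamine triphosphatase, and Slc19a2 and Slc19a3, the thiamine transporters THTR1 and THTR2. They were taken as every probe set whose platform annotation gives 1 of these symbols and no other, which gave 7 probe sets (2 for Thtpa, 3 for Slc19a2 and 2 for Slc19a3) of 34945 with 1 symbol, and 3 genes of 18193. The set was selected on the MSXH minus HFD difference in these same arrays, so every difference between the diets in these 3 genes is given as a description, with no test.

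All 20 mice were male C57BL/6J, 8 weeks old, on a diet with 45 kcal% fat for 4 weeks and without food for the last 16 h. The 10 MSXH mice (labelled 002MSXH) had 0.02% maple syrup extract high mixed into that diet, and the 10 HFD mice had the high-fat diet alone. Liver RNA of each mouse went on 1 Affymetrix 3' array. The low-fat group and the higher extract dose of the series text were not analysed here. Whole liver was sampled, so fewer cells of a type and less RNA per cell cannot be told apart.

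Thiamine diphosphate, the main intracellular form, is the cofactor of pyruvate dehydrogenase, oxoglutarate dehydrogenase, branched-chain ketoacid dehydrogenase and transketolase, so it stands where carbohydrate and amino acid carbon enters oxidation and the pentose phosphate pathway. The triphosphate is a minor form, which Thtpa hydrolyses to the diphosphate. Slc19a2 and Slc19a3 belong to the same carrier family as the reduced folate carrier Slc19a1 and are high-affinity thiamine carriers. The liver is a main site of thiamine phosphorylation and use.

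The deposited log2 levels ran from 5.17 to 15.01, and their spread between arrays was strongly compressed, with a median SD of 1.07e-05 per probe set and an SD under 0.001 in 97.6% of the 45101 probe sets. Differences between the diets are therefore given as standardized differences: the MSXH mean minus the HFD mean, divided by the pooled SD within groups, with a 95% interval. MSXH 4 and MSXH 6 stood apart from the other 18 arrays. Their mean log2 level over 15 skeletal muscle markers was 7.995 and 7.454, against 6.373 to 6.445 in the other 8 MSXH mice and 6.370 to 6.426 in HFD mice, and their array medians were 6.522555 and 6.522349, against at most 6.521723 elsewhere. The MSXH mean was higher for 14 of the 15 muscle markers. The mean over 10 hepatocyte markers lay between 13.624 and 13.631 on every array. Values are given with and without these 2 mice.

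Thtpa was higher in MSXH at both probe sets in the values as deposited. At 1433436_s_at the lowest, median and highest log2 levels were 8.70731, 8.70734 and 8.70736 in MSXH mice, against 8.70727, 8.70730 and 8.70732 in HFD mice. The groups overlapped at their edges: 7 of the 10 MSXH mice lay above every HFD mouse, and all 10 lay above the HFD median. The difference was 4.09e-05 on the log2 scale and the standardized difference 2.29 (95% interval 1.12 to 3.42), or 2.16 (0.95 to 3.33) without MSXH 4 and 6. Setting each MSXH mouse against each HFD mouse gave 100 pairs, and the MSXH mouse was higher in 96 of them, a number reached by 0.0458% of all probe sets. Since Thtpa was chosen with this contrast known, nothing is read from that share.

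At the other Thtpa probe set, 1428003_s_at, the lowest, median and highest levels were 7.14232, 7.14234 and 7.14238 in MSXH mice, against 7.14229, 7.14232 and 7.14234 in HFD mice. Here 4 MSXH mice lay above every HFD mouse, and the standardized difference was 1.53 (0.50 to 2.52), or 1.69 (0.58 to 2.77) without MSXH 4 and 6. The MSXH mouse was higher in 87 of 100 pairs, a number reached by 0.798% of all probe sets. Both probe sets carry the suffix s, which marks probes that can match several transcripts, so they need not read Thtpa alone.

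The sign of the Thtpa difference depended on how the arrays were scaled. Centring each array on its median turned both probe sets, to standardized differences of -0.50 and -0.53, and quantile normalization brought them to 0.06 and -0.30. These scalings moved nearly all probe sets the same way: 2.27% of all 34945 had a higher MSXH mean after centring and 6.17% after quantile normalization, against 53% as deposited, so a turned sign under them is not particular to Thtpa or to any gene below. Without MSXH 4 and 6, both were higher in MSXH under either scaling, at 0.84 and 0.71 after centring and at 1.34 and 0.88 after quantile normalization. These settings were chosen after seeing the data, and under them 40.5% and 52.6% of all probe sets had a higher MSXH mean. The array medians spread over 1.61e-04 even among the other 18 arrays, which is more than the whole range of Thtpa over the 20 arrays (8.96e-05 and 9.47e-05).

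**Figure D1:**
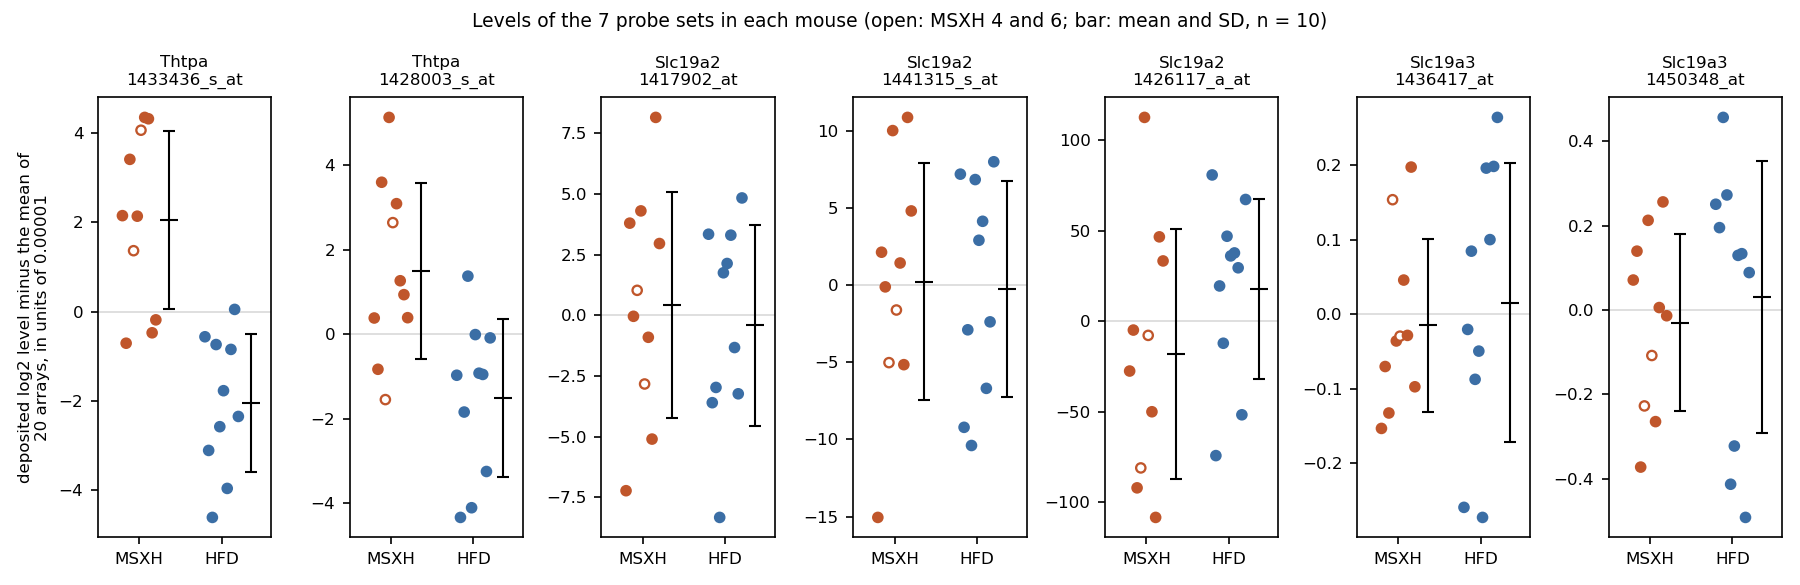
Deposited log2 levels of the 7 probe sets in each mouse, less the mean of the 20 arrays and in units of 0.00001, with MSXH left of HFD; each point is 1 mouse, open points are MSXH 4 and 6, and the bar gives the group mean and SD (n = 10). The MSXH mice lie higher at both Thtpa probe sets, an order that centring the arrays on their medians turns, as it does for most probe sets, while the groups overlap widely at the 5 transporter probe sets; the vertical scale differs between panels.

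Slc19a2, the transporter THTR1, differed little between the diets at 2 of its 3 probe sets. At 1417902_at the lowest, median and highest log2 levels were 10.66457, 10.66465 and 10.66472 in MSXH mice, against 10.66456, 10.66464 and 10.66469 in HFD mice, and at 1441315_s_at they were 9.76491, 9.76507 and 9.76517 in MSXH mice, against 9.76496, 9.76506 and 9.76514 in HFD mice. The groups covered nearly the same range, with standardized differences of 0.19 (-0.69 to 1.06) and 0.07 (-0.81 to 0.94). The third, 1426117_a_at, had levels of 7.53815, 7.53906 and 7.54036 in MSXH mice, against 7.53849, 7.53956 and 7.54004 in HFD mice. Its standardized difference was -0.60 (-1.49 to 0.31), with 3 of 10 MSXH mice above the HFD median. Without MSXH 4 and 6 the 3 values were 0.25, 0.18 and -0.47. Centring made all of them negative, at -0.61, -0.59 and -0.76, as did quantile normalization, at -0.11, -0.41 and -0.37. Without MSXH 4 and 6 they were 0.17, 0.15 and -0.48 after centring and 0.74, 0.21 and 0.07 after quantile normalization, so no direction held over these settings.

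Slc19a3, the transporter THTR2, hardly varied between arrays. At 1436417_at the lowest, median and highest levels were 6.3931392, 6.3931404 and 6.3931427 in MSXH mice, against 6.3931380, 6.3931411 and 6.3931434 in HFD mice, and at 1450348_at they were 5.8532798, 5.8532835 and 5.8532861 in MSXH mice, against 5.8532786, 5.8532849 and 5.8532881 in HFD mice. No MSXH mouse lay above the highest HFD mouse at either. The standardized differences were -0.20 (-1.07 to 0.69) and -0.22 (-1.10 to 0.66), or -0.31 and -0.09 without MSXH 4 and 6. They were larger in size under both scalings, at -0.67 and -0.67 after centring and -0.73 and -0.93 after quantile normalization. Leaving out MSXH 4 and 6, they were -0.07 and -0.06 after centring and -0.49 and -1.20 after quantile normalization. The SD over the 20 arrays was 1.52e-06 and 2.66e-06, and 1.01% and 5.01% of all probe sets had a lower one. By the same measure 72.9% and 70.9% lay below the Thtpa probe sets, and 80.5%, 86.3% and 96.6% below those of Slc19a2. The file holds no detection call, so whether Slc19a3 was above background was not tested.

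**Figure D2:**
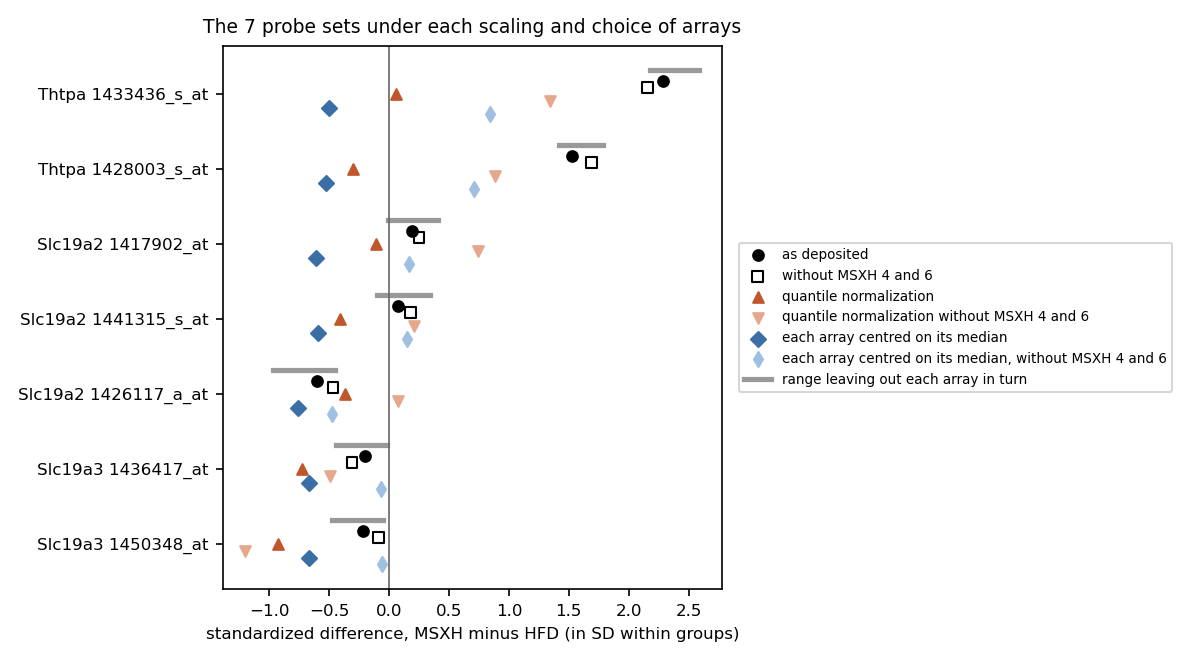
Standardized difference (MSXH minus HFD, horizontal axis, in SD within groups) of each of the 7 probe sets (rows) as deposited, under 2 scalings, without MSXH 4 and 6, and as the range when each array is left out in turn. Thtpa 1433436_s_at stays between 2.18 and 2.59 when any 1 array is left out but falls to -0.50 after centring all 20 arrays, and the transporters lie between -1.20 and 0.74 throughout.

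The 3 probe sets of Slc19a2 ordered the mice alike within each diet, a measure into which the difference between the diets does not enter. Between 1417902_at and 1441315_s_at, Pearson r was 0.89 and Spearman rho 0.90 in MSXH mice (n = 10, permutation p 0.00066 and 0.00077, adjusted over 16 relations 0.00528 and 0.00411), against 0.91 and 0.92 in HFD mice (n = 10, permutation p 0.00039 and 0.00064, adjusted 0.00528 and 0.00411). With the 2 mice most distant from the 1417902_at median left out, r was 0.75 in MSXH and 0.87 in HFD. The mice at the ends were the same on both probe sets: MSXH 1 lowest and MSXH 9 highest, and HFD 4 lowest and HFD 10 highest. Like those of Thtpa, 1441315_s_at carries the suffix s, so it need not read Slc19a2 alone.

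The third Slc19a2 probe set, 1426117_a_at, followed 1417902_at with r 0.61 and rho 0.71 in MSXH mice (permutation p 0.0637 and 0.0275, adjusted 0.146 and 0.0629), against r 0.75 and rho 0.92 in HFD mice (0.0118 and 0.00029, adjusted 0.0472 and 0.00411). With 1441315_s_at it had r 0.66 and rho 0.78 in MSXH mice (permutation p 0.0349 and 0.0108, adjusted 0.093 and 0.0344), against r 0.77 and rho 0.88 in HFD mice (0.008 and 0.00156, adjusted 0.0427 and 0.00624). Without the 2 farthest mice these r were 0.69 and 0.82, and 0.90 and 0.66, for MSXH and HFD. The relation of all 3 was thus positive in both diets, with 5 of the 6 rho and 4 of the 6 r past an adjusted p of 0.05. After centring the arrays the 6 rho lay between 0.65 and 0.98, and 4 of them passed. Centring takes 1 number off every probe set of an array, which can itself make probe sets vary together. Nothing is therefore read from these passes. Over all 20 arrays, with the group median taken off, the 2 probe sets most like 1417902_at among the other 34944 were the other 2 of Slc19a2, at rho 0.91 and 0.79.

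For Thtpa and Slc19a3 the relation between probe sets did not pass the test in the values as deposited, and it did after centring all arrays. The 2 Thtpa probe sets had r 0.56 and rho 0.56 in MSXH mice (permutation p 0.0958 and 0.0949, adjusted 0.192 and 0.19), against r 0.22 and rho 0.21 in HFD mice (0.542 and 0.56, adjusted 0.737 and 0.815). Without the 2 farthest mice r was 0.46 and 0.49. In the comparison over all 20 arrays, the other Thtpa probe set came in place 2602 of 34944, with rho 0.49. The 2 Slc19a3 probe sets had r 0.11 and rho 0.09 in MSXH mice (permutation p 0.757 and 0.812, adjusted 0.866 and 0.895), against r 0.03 and rho -0.27 in HFD mice (0.942 and 0.446, adjusted 0.942 and 0.714), and r of -0.08 and -0.12 without the 2 farthest mice. After centring, rho was 0.88 in MSXH and 0.72 in HFD for Thtpa (permutation tests, adjusted p 0.00365 and 0.0423), and 0.96 in MSXH and 0.93 in HFD for Slc19a3 (adjusted p 0.00056 and 0.0018). With centring and without MSXH 4 and 6, the Thtpa pair in MSXH mice had rho 0.76 and did not pass (permutation test, adjusted p 0.0833). Centring takes 1 number off every probe set of an array, and the array medians spread more widely than these probe sets do. Nothing is therefore read from the passes after centring.

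Between the genes, only the probe set of highest mean of each gene was compared, and the other pairs of probe sets were not tested. In that pair, Thtpa and Slc19a2 ran opposite to each other among MSXH mice. Thtpa 1433436_s_at against Slc19a2 1417902_at had r -0.70 and rho -0.75 there (permutation p 0.0265 and 0.0167, adjusted 0.0848 and 0.0446), against r -0.19 and rho -0.08 in HFD mice (0.599 and 0.839, adjusted 0.737 and 0.895), and whether the diets differ in this was not tested. Without the 2 farthest mice r was -0.49 in MSXH and -0.31 in HFD. Without MSXH 4 and 6 the rho of -0.71 no longer passed (permutation p 0.058, adjusted 0.133). After centring, rho in MSXH mice was 0.47 with all 10 and -0.05 without MSXH 4 and 6. Centring takes 1 number off every probe set of an array, which can itself make probe sets vary together. Nothing is therefore read from that turn. Over all other probe sets, the first axis of variation between mice within the diets held 14.5% of the variance. Its rho in MSXH mice was 0.72 with Thtpa 1433436_s_at and -0.47 with Slc19a2 1417902_at. In HFD mice these were 0.28 and -0.39. Whether the 2 genes are related apart from this shared axis was not tested. The 4 relations of Slc19a3 1436417_at with Thtpa and Slc19a2 had rho between -0.15 and 0.30, with adjusted permutation p of rho from 0.714 to 0.945.

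**Figure D3:**
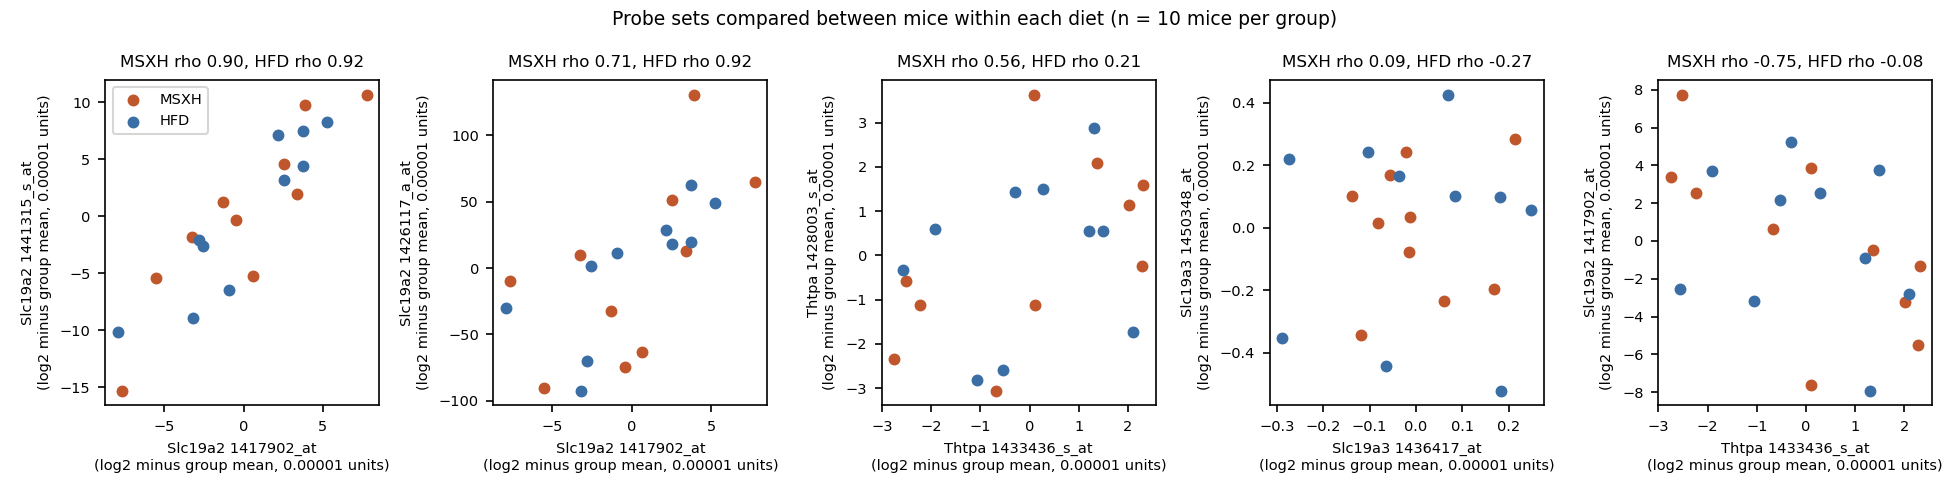
Levels of 2 probe sets against each other within each diet, each as deposited log2 level minus its group mean in units of 0.00001; each point is 1 of 10 mice per group, and rho is Spearman's. The Slc19a2 probe sets lie along a rising line in both diets (rho 0.71 to 0.92 in the panels shown), the Slc19a3 pair shows none before centring, and Thtpa falls against Slc19a2 in MSXH mice (rho -0.75), a sign that centring the arrays turns.

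In the RefSeq annotation of GRCm38.p6, Thtpa (gene ID 105663) lies on the plus strand of chromosome 14, at 55094784 to 55098995, and its end overlaps that of Ap1g2, a subunit of a clathrin adaptor on the minus strand, by 161 bases. Slc19a2 (gene ID 116914) and Slc19a3 (gene ID 80721) lie on chromosome 1, at 164249046 to 164265385 on the plus strand and at 83012523 to 83038820 on the minus strand. Of the 2 nearest genes on each side of Thtpa, Ap1g2 had a standardized difference of 0.33 (limma unadjusted p 0.494), Jph4 of 0.61 (0.261), Zfhx2 of -0.77 (0.097) and the antisense RNA Zfhx2os of 0.22 (0.627). Around Slc19a2, Ccdc181, which starts 10213 bases beyond its end, stood at 1.82 (0.75 to 2.86, limma p 0.000567, adjusted p 0.19), the 3 probe sets of Blzf1 between -0.58 and 0.16, and the 2 of the coagulation factor gene F5 at -0.92 and -0.21. Around Slc19a3, Krtap28-13 stood at -0.45 and the 5 probe sets of Agfg1 between -0.16 and 0.51. No neighbour passed an adjusted p of 0.05.

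The regions around the annotated starts of Slc19a2, whose probe sets varied together between mice, and of Thtpa, which was higher in MSXH as deposited and lower after centring, are shown from 250 bases before to 50 after the start, from RefSeq (GRCm38.p6). Capitals mark the GC box, the letters GGGCGG on either strand, which is the core sequence that Sp1 binds. Slc19a2 lies at chr1:164248796-164249095 and Thtpa at chr14:55094534-55094833, both on the plus strand.
Slc19a2: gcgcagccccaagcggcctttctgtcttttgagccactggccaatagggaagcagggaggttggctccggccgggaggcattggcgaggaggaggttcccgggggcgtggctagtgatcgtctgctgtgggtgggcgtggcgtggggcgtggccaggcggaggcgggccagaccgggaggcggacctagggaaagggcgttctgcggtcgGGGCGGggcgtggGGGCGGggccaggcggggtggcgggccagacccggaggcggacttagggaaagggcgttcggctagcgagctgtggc
Thtpa: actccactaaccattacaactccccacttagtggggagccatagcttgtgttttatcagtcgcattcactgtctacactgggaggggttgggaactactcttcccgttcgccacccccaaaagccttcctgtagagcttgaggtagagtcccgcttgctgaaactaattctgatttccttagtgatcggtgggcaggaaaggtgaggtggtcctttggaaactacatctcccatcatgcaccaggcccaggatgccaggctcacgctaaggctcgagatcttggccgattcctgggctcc
The Slc19a2 region is 72% G or C and holds 2 GC boxes and 2 copies of CCAAT (either strand), while the Thtpa region is 53% G or C and holds 0 of each. The Slc19a3 region, not shown, is 52% G or C and also holds 0 of each. Among 32851 start regions of this length, 35.7% hold the GC box and 37.4% hold CCAAT. These matches describe the letters in this window only.

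The genes most like each of the 3 between mice were taken as those with the highest rho to its probe set of highest mean, over the 20 arrays less the group median. For Thtpa they were Cast, the calpain inhibitor calpastatin (0.92), Rnft1 (0.92) and Fat1, a protocadherin (0.89). For Slc19a2 they were Tent4a (0.79), Gtf2h4, a subunit of the transcription factor TFIIH (0.76), and the ubiquitin ligase Rnf4 (0.76), and for Slc19a3 they were Wasl (0.81), the transcription factor Ehf (0.81) and Cenpn, a centromere protein (0.79). These were picked as the highest among 34944 probe sets each, passing over those of the 3 genes themselves, and are given as a description. The other 2 probe sets of Slc19a2 ranked above Tent4a, at 0.91 and 0.79.

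No gene passed the test between the diets, and so none of thiamine handling or use did. By limma over all 34945 probe sets, 0 (0%) passed at an adjusted p of 0.05, where the smallest was 0.11. The exact rank sum test also passed 0. Before adjustment 3746 (10.7%) had p under 0.05 by limma, 2108 (6.03%) with a higher and 1638 (4.69%) with a lower MSXH mean, and 3250 by the rank sum test. The higher share of these limma calls, 56.3% as deposited, was 1.25% after quantile normalization and 7.55% after centring. With MSXH 4 and 6 left out it was 57.7% as deposited, 53% after quantile normalization and 59.8% after centring. Over all probe sets and arrays, the share with a higher MSXH mean was 53% as deposited, 6.17% after quantile normalization and 2.27% after centring. In 3 lists of pathway genes, 6 of 62 probe sets had an unadjusted p under 0.05, 4 higher and 2 lower, which is near the background. Their median standardized difference was 0.11, against 0.04 over all probe sets.

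In the first list, of carriers and of enzymes that form or split thiamine phosphates, 8 of 11 genes were measured with 13 probe sets, and 0 had an unadjusted p under 0.05. The other 3 were not analysed here. Slc19a1, the reduced folate carrier of the same family, was lower at all 3 of its probe sets, at -0.91 (-1.82 to 0.03, limma adjusted p 0.476), -0.59 and -0.59, and lower too without MSXH 4 and 6 (-1.13, -0.72 and -0.66). Slc47a1, the MATE1 exporter of organic cations including thiamine, stood at 0.75 (-0.17 to 1.65), and Slc22a2, the cation transporter OCT2, at -0.74 (-1.64 to 0.17). The phosphatase Alpl stood at 0.51, the phosphatase Acpp at 0.50, 0.33 and 0.01 at its 3 probe sets, and Slc44a4 and Slc35f3, transporters of thiamine diphosphate and of thiamine in human, at 0.39 and 0.14. Ak1, an adenylate kinase abundant in muscle that can form thiamine triphosphate, stood at 0.45 at 1422184_a_at with all arrays and at -0.98 without MSXH 4 and 6, and at -0.03 and -0.25 at its other probe set. Levels of the first on those 2 arrays were 6.30296 and 6.26822, against at most 6.25789 on the other 18, which are the arrays high in muscle markers. Centring the arrays gave Slc47a1, Alpl, Slc44a4, Slc35f3 and the first probe set of Acpp a lower MSXH mean, as it did for most probe sets.

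In the second list, of enzymes and subunits that bind thiamine diphosphate, 3 of 20 probe sets of 12 genes had an unadjusted p under 0.05. Ogdh, the first subunit of the oxoglutarate dehydrogenase complex, stood at 1.32 at 1445632_at (0.33 to 2.28, limma p 0.00733, adjusted p 0.315) and at 0.21 at 1451274_at. Its levels at the first had a lowest, median and highest value of 6.93924, 6.93927 and 6.93933 in MSXH mice, against 6.93918, 6.93924 and 6.93928 in HFD mice, groups that overlapped. Both scalings of all arrays turned this difference, to -0.52 and -0.43, as they did for most probe sets that were higher in MSXH. Tktl1, a transketolase-like protein, stood at -1.30 (-2.25 to -0.31, limma p 0.0086, adjusted p 0.323), -1.13 and -0.05 at its 3 probe sets. Pdha1, of pyruvate dehydrogenase, stood at 0.72 and -0.04 at its 2 probe sets. Of the lyases of 2-hydroxyacyl-CoA, Hacl1 stood at -0.51 and Ilvbl at -0.50 and -0.30.

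In the third list, of partner subunits and regulators of these dehydrogenases, 3 of 29 probe sets of 14 genes had an unadjusted p under 0.05, all 3 higher. These were Pdpr, the regulatory subunit of pyruvate dehydrogenase phosphatase, at 1.09 (0.13 to 2.02, limma adjusted p 0.411) and 0.95 (adjusted p 0.453), and its catalytic subunit Pdp1 at 0.96 (adjusted p 0.444). The other 2 probe sets of Pdpr stood at 0.43 and 0.53 and that of Pdp1 at 0.22. Bckdk, the kinase of the branched-chain complex, stood at 0.75 and -0.54 at its 2 probe sets, and Ppm1k, a phosphatase of it, at 0.69 and 0.34. Dld, the subunit shared by the complexes, stood at 0.69 and -0.50, so the probe sets of Bckdk and of Dld pointed opposite ways.

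**Figure D4:**
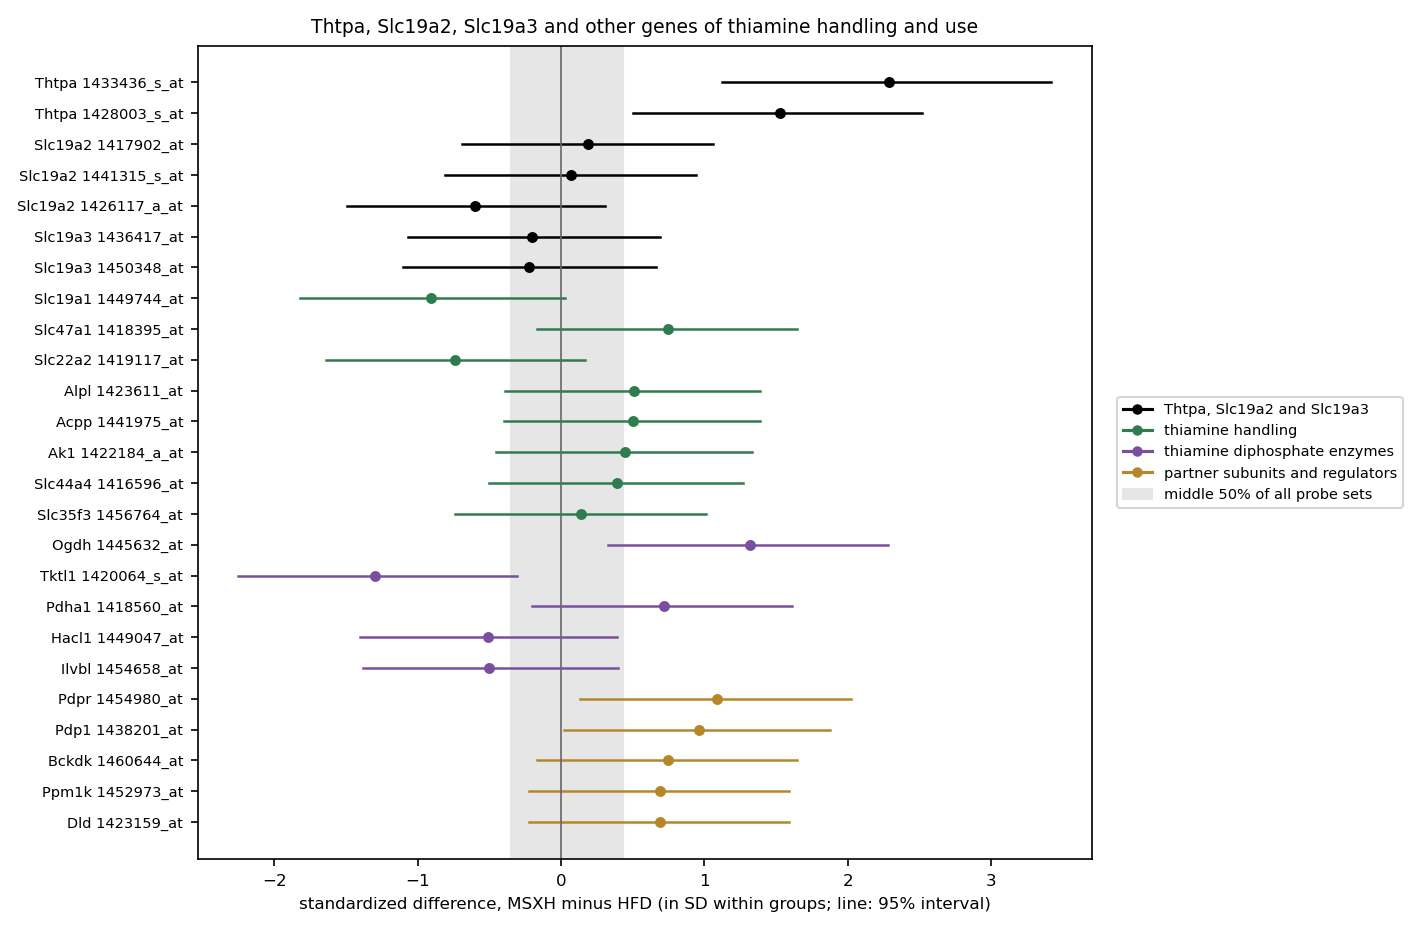
Standardized differences (MSXH minus HFD, horizontal axis, in SD within groups; lines: 95% intervals, n = 10 mice per group) of the 7 probe sets of Thtpa, Slc19a2 and Slc19a3 and of the named genes of the 3 pathway lists, with the middle 50% of all probe sets (-0.35 to 0.43) in grey. Values are as deposited, and no interval is adjusted for the number of genes; centring all arrays turns the sign of Thtpa and of 12 of the 18 pathway probe sets shown, and leaves 2.27% of all probe sets higher in MSXH.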

How the data were processed

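Liver RNA of 10 MSXH and 10 HFD mice was measured on 1 biotin-labelled Affymetrix 3' array each, per the labels' protocols. The deposited values are taken as log2 probe set levels from their range. How the log base, background correction, summarization and normalization were chosen was not given in the sources used here. Array number limits the precision.

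Of 45101 probe sets, 34945 had 1 symbol in the platform table (932 had several and 9224 none or were controls), and matching to the RefSeq genes of GRCm38.p6 placed 34741 gene IDs and altered 0 symbols. All 34945 were kept, with no filter on level. The 3 genes, the lists, the tests and the first set of alternatives were chosen with earlier results of these data known. Limma 3.58.1 in R 4.3.3 (lmFit, eBayes with trend, 18 residual and 0.748 prior degrees of freedom) tested the diets, two-sided, with Benjamini-Hochberg adjustment at 0.05. Standardized differences have 95% noncentral t intervals. Relations between mice used two-sided permutation tests with 100000 permutations, within each diet, adjusted over 16 relations. Named were all genes of the first pathway list, the 5 of smallest limma p in the others, the 2 nearest genes on each side and the 3 genes most alike. The cell type markers were written down likewise; adipocyte, macrophage, endothelial and cholangiocyte lists gave 0 genes past an adjusted p of 0.05, as did hepatocyte and muscle lists. The limma step was tested on simulated data. Alternatives were 2 scalings, leaving out arrays, a replicate block, other probe set choices and other tests. Python 3.11.15, numpy 2.4.6, scipy 1.17.1 and matplotlib 3.10.9 did the rest.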

Additional observations from a re-analysis of the deposited data

Results flagged for a closer look

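Among 50 groups of 10 mice (25 probe sets, the 7 of Thtpa, Slc19a2 and Slc19a3 and 18 of pathway genes), a mouse at the end of its group lay far from the next in 9, where chance gives about 1 in 20. The gap is given as a share of the group's range, against a critical value of 0.466. None of the 9 was a probe set of Thtpa, Slc19a2 or Slc19a3. MSXH 4 was far from the other MSXH mice for Ak1 (0.688) and Pdha1 (0.607), and its muscle markers were high too. MSXH 10 was so for Slc44a4 (0.589) and MSXH 1 for Slc35f3 (0.546). Among HFD mice, HFD 3 was so for Alpl (0.483) and Acpp (0.5), HFD 5 for Slc44a4 (0.526), HFD 4 for Hacl1 (0.503) and HFD 2 for Ilvbl (0.69).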

How the results depend on the processing

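Numbers after Thtpa, Slc19a2 and Slc19a3 name their probe sets in order of mean level. The titles' numbers did not pair the mice: deviations of same-numbered mice correlated at -0.229 to 0.117, and 1 of 10 mice correlated best with its own number. With the replicate block, Thtpa stood at 2.05 and 1.33, and 0 probe sets passed an adjusted p of 0.05. Limma counts at an unadjusted p under 0.05 were 3496, against 3746 without the block, and 5 against 6 in the pathway lists. Leaving out each array in turn gave 2.18 to 2.59 and 1.42 to 1.79 for Thtpa 1 and 2, -0.01 to 0.41, -0.10 to 0.34 and -0.97 to -0.45 for Slc19a2, and -0.44 to -0.02 and -0.48 to -0.05 for Slc19a3. It gave 0 to 1 probe sets at an adjusted p of 0.05 (1 without MSXH 7 and 1 without HFD 8) and 3179 to 4160 at an unadjusted p under 0.05, and 0 and 4 to 8 in the pathway lists. The exact rank sum test and the other limma settings also called 0 at an adjusted p of 0.05.

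Quantile normalization moved Thtpa to 0.06 and -0.30, and centring to -0.50 and -0.53; with centring and without MSXH 4 and 6, chosen after seeing the data, Thtpa 1 was at 0.84. Counts at an unadjusted p under 0.05 were 1756 (quantile), 424 (centring), 627 (centring without MSXH 4 and 6), 1982 (1 probe set per gene) and 1885 (above the median level), the last 2 over fewer probe sets. In the pathway lists they were 0, 1, 1 and 3 for the last 4 of these settings. The share of these calls that was higher in MSXH was 56.3% as deposited, 1.25% after quantile normalization and 7.55% after centring, and 53% and 59.8% under these without MSXH 4 and 6.

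Pathway differences that turned under quantile normalization were Alpl -0.20, Acpp -0.41, Slc44a4 -0.53, Slc35f3 -0.64, Ogdh -0.43, Pdha1 -0.75, Pdpr -0.21, Pdp1 -0.54, Bckdk -0.34 and Ppm1k -0.53. Under centring they were Slc47a1 -0.36, Alpl -0.43, Acpp -0.43, Slc44a4 -0.63, Slc35f3 -0.66, Ogdh -0.52, Pdha1 -0.43, Pdpr -0.62, Pdp1 -0.60, Bckdk -0.61, Ppm1k -0.10 and Dld -0.64. Without MSXH 4 and 6 Ak1 turned (-0.98, and -1.01 and -0.97 with either scaling). With quantile normalization and without these arrays Tktl1 (0.53), Pdha1 (-0.38), Ilvbl (0.24) and Pdp1 (-0.17) turned, and with centring Slc35f3 (-0.03). None had an adjusted p under 0.05 in any of these.

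Centring takes a number off all probe sets of an array alike, and rho within groups then was 0.88 and 0.72 for the 2 Thtpa probe sets (MSXH and HFD), 0.96 and 0.93 for Slc19a3, 0.93 and 0.61 for Thtpa 1 with Slc19a3 1, 0.47 and 0.47 for Thtpa 1 with Slc19a2 1, and 0.70 for Slc19a2 1 with Slc19a3 1 in MSXH. Of the 6 relations within Slc19a2, 4 had a lower rho after centring, and 1 with 3 in HFD fell to 0.67 (adjusted p 0.0573). With centring and without MSXH 4 and 6, rho was 0.93 for Slc19a3, 0.86 for Thtpa 1 with Slc19a3 1 and -0.05 for Thtpa 1 with Slc19a2 1. In that setting it was 0.76 for the 2 Thtpa probe sets (adjusted permutation p 0.0833) and 0.64 for Slc19a2 2 with 3 (adjusted p 0.19). Without those mice alone, Thtpa 1 with Slc19a2 1 was -0.71 (adjusted p 0.133). For other changes the cause was not tested. Signal over background is unknown in these values, which limits the reading of dim probe sets.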
